A study of Mus musculus with 89 samples.

Results

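Hox genes encode homeodomain transcription factors that give cells of the embryo their position along the head-to-tail axis. In the mouse they lie in the HoxA, HoxB, HoxC and HoxD clusters, and the number in a gene's name is its paralogue position, from the anterior end of the cluster (low numbers, used in hindbrain and neck) to the posterior end (high numbers, used in trunk, limb and tail). In the embryo the anterior genes of a cluster are switched on before the posterior ones, retinoic acid, Wnt and FGF signals and the Cdx factors act on them from outside, Polycomb complexes hold them silent and MLL complexes keep them active. In mouse embryonic stem cells (ESCs) the clusters are known as Polycomb targets with little transcription. Members were taken by symbol, and 38 Hox symbols were found in 39 of the 54146 gene rows, since Hoxd4 has 2 gene IDs. HoxA and HoxB held 10 members each, and HoxC and HoxD 9 each. The members are grouped here as anterior (positions 1 to 4, 11 genes), central (5 to 8, 11 genes) and posterior (9 to 13, 16 genes).

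The RNA-seq libraries came from EKOiE cells, mouse ESCs that lack their own Esrrb gene and carry in its place an Esrrb transgene induced by doxycycline (Dox), so that every library carries the knockout and the transgene. The state +E+N is EKOiE with Dox at 1 µg/ml, and -E is EKOiE 2 days after Dox was withdrawn. The state -N is EKOiE NrKO with Dox, a derivative in which the exon for the DNA-binding domain of the orphan receptor Nr5a2 is disrupted at both alleles, and -E-N is EKOiE NrKO 2 days after Dox withdrawal. Each state was grown in FCS/LIF (serum with the cytokine LIF, 2 libraries per state, 8 in all) and in 2i/LIF (defined medium without serum, holding LIF, the MEK inhibitor PD0325901 and the GSK3 inhibitor CHIR99021, 3 libraries per state, 12 in all). Other features of the NrKO line cannot be told apart from the absence of Nr5a2, nor the medium from the batch of cultures grown in it. Libraries of FCS/LIF held 36514172 to 45443379 counts and those of 2i/LIF 26653035 to 32526534. Esrrb, the targeted gene, was measured at 16.8 to 40.1 TPM (reads per transcript length, scaled to one total per library) in the FCS/LIF libraries labelled without Dox and at 156 to 249 TPM in those with it. In 2i/LIF, Esrrb lay at 187 to 273 TPM in +E+N and 113 to 133 TPM in -E. The NrKO cells had 133 to 218 TPM with Dox and 31.1 to 49.9 TPM after its withdrawal, so that the highest library of -E (133.03 TPM) reached the lowest of -N (132.57 TPM). Nr5a2 lay at 13.8 to 24.5 TPM in the 2i/LIF libraries labelled with the gene and at 6.22 to 22.3 TPM in those without. A gene total can include transcripts of a disrupted allele, so these values do not check the deleted exon.

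Among the 2i/LIF libraries, those numbered 3 held more HoxA, HoxB and HoxD counts than those numbered 1. The summed HoxA level (CPM, the count as a share of the TMM-scaled library total) in library 3 was 3.71 (+E+N), 3.11 (-E), 4.98 (-N) and 3.03 (-E-N) times that in library 1. For HoxB the ratio of library 3 to library 1 was 8.81 in -E-N, where all 10 HoxB members were highest in library 3, and between 1.21 and 3.24 in the other states. For HoxD it was 4.795 in -E-N, where 9 of 10 rows were highest in library 3, and between 1.35 and 2.94 in the other states. The HoxC ratios were 0.84 to 2.47. In bulk RNA, more cells with a transcript and more transcript per cell cannot be told apart.

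Promoter sequences are shown for 3 genes whose counts are described below, to place the letters that Hox proteins and their cofactors read. Promoters (250 bases before to 50 bases after the start, from RefSeq on GRCm38.p6) were matched for 22 of the 38 members, with 24 promoters in all. The members with no entry were Hoxa4, Hoxb2, Hoxb3, Hoxb5, Hoxb6, Hoxb7, Hoxb9, Hoxb13, Hoxc5, Hoxc6, Hoxc8, Hoxc9, Hoxc10, Hoxc11, Hoxc12 and Hoxc13, and the motif counts do not cover them. Hoxb1 (chr11:96365508-96365807, plus strand), Hoxa2 (chr6:52164782-52165081, minus strand) and Hoxb4 (chr11:96318017-96318316, plus strand) are given 5′ to 3′, and capitals mark the letters TGATNNAT, the form of a joint Pbx and Hox site, on either strand.
Hoxb1: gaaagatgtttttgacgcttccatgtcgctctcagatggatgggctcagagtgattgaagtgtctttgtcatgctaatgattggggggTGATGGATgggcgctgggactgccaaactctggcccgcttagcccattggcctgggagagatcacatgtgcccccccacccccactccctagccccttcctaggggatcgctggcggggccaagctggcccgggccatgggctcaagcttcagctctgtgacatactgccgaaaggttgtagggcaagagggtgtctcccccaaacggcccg
Hoxa2: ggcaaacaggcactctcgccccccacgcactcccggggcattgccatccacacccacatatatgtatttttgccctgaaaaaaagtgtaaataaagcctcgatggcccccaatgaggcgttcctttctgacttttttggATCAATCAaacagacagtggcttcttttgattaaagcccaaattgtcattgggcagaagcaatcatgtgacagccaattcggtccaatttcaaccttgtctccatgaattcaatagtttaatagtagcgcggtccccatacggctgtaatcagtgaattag
Hoxb4: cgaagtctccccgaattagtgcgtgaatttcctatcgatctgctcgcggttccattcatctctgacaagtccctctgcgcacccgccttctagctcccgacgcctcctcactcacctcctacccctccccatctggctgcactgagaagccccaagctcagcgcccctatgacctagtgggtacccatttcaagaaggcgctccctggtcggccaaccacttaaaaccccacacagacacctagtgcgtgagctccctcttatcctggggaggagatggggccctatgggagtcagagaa
In Hoxb1 the match covers bases 89 to 96, in Hoxa2 it is on the opposite strand at bases 140 to 147, and Hoxb4 has none. Among all 32851 promoters, 8.85% hold TGATNNAT on either strand, against 4 of the 24 member promoters (Hoxd11, Hoxa2, Hoxb8 and Hoxb1). The letters TCAAGGTCA, an extended orphan receptor site, were in 0.423% of all promoters and in 0 of the 24. The shorter AGGTCA, which the longer motif contains, was in 16.3% of all promoters and in 7 of the 24, among them Hoxb4, Hoxa5 and Hoxc4. TTTATG, a Cdx site, was in 11.9% of all promoters and in 5 of the 24. These windows hold only letters near the start, and no binding was measured here.

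Most Hox genes were near the limit of detection in FCS/LIF and most were measurable in 2i/LIF. A member counted as detected when every replicate of some state held 20 counts or more, which is also the filter of the test. In FCS/LIF 4 of 38 members were detected, which were Hoxb4, Hoxb9, Hoxc13 and Hoxd13. HoxA had 0 detected of 10, HoxB 2 of 10, HoxC 1 of 9 and HoxD 1 of 9. The summed count of all members was 218 to 360 per library in +E+N and 472 to 485 in -E-N. None of the 34 others exceeded 21 counts in any library. Hoxa6 was at 0 in all 8 FCS/LIF libraries, and with 0 counts up to 3 per library remain possible.

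In 2i/LIF 21 of 38 members were detected. These were 5 of 10 HoxA genes (Hoxa2, Hoxa3, Hoxa4, Hoxa5, Hoxa7), 5 of 10 HoxB genes (Hoxb1, Hoxb2, Hoxb4, Hoxb9, Hoxb13), 7 of 9 HoxC genes (Hoxc4, Hoxc5, Hoxc6, Hoxc10, Hoxc11, Hoxc12, Hoxc13) and 4 of 9 HoxD genes (Hoxd4, Hoxd8, Hoxd9, Hoxd13). By position they were 8 of 11 anterior, 5 of 11 central and 8 of 16 posterior genes. Hoxb1 and Hoxb2 passed the filter only through -E-N, where they were high, and Hoxc6 and Hoxd4 only through -E. The summed count of all members per library was 1696 to 2164 with both factors, 1858 to 2947 without Esrrb, 829 to 1798 without Nr5a2 and 1170 to 5133 without both. Of the 17 members not detected in 2i/LIF, Hoxb3 had up to 220 counts and Hoxb8 up to 199, both in library 3 of -E-N. Hoxb3 read 4, 57 and 220 counts in -E-N and Hoxb8 17, 32 and 199, so that in each the lowest of the 3 libraries fell short of the filter. Hoxb5 had 2, 12 and 45 counts in -E-N and 0 or 1 in the other states, and Hoxb6 1, 3 and 44 in -E-N and 0 to 2 elsewhere, so that each of these 4 genes had its highest count in library 3 of -E-N. Hoxa10 reached 120 counts and Hoxa9, Hoxb7, Hoxc8, Hoxc9 and Hoxd1 between 30 and 71, while Hoxa6, Hoxa11, Hoxa13, Hoxd3, Hoxd10, Hoxd11 and Hoxd12 did not exceed 8 counts in any 2i/LIF library. The row of Hoxd4 that was not tested had 0 to 18 counts.

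**Figure D1:**
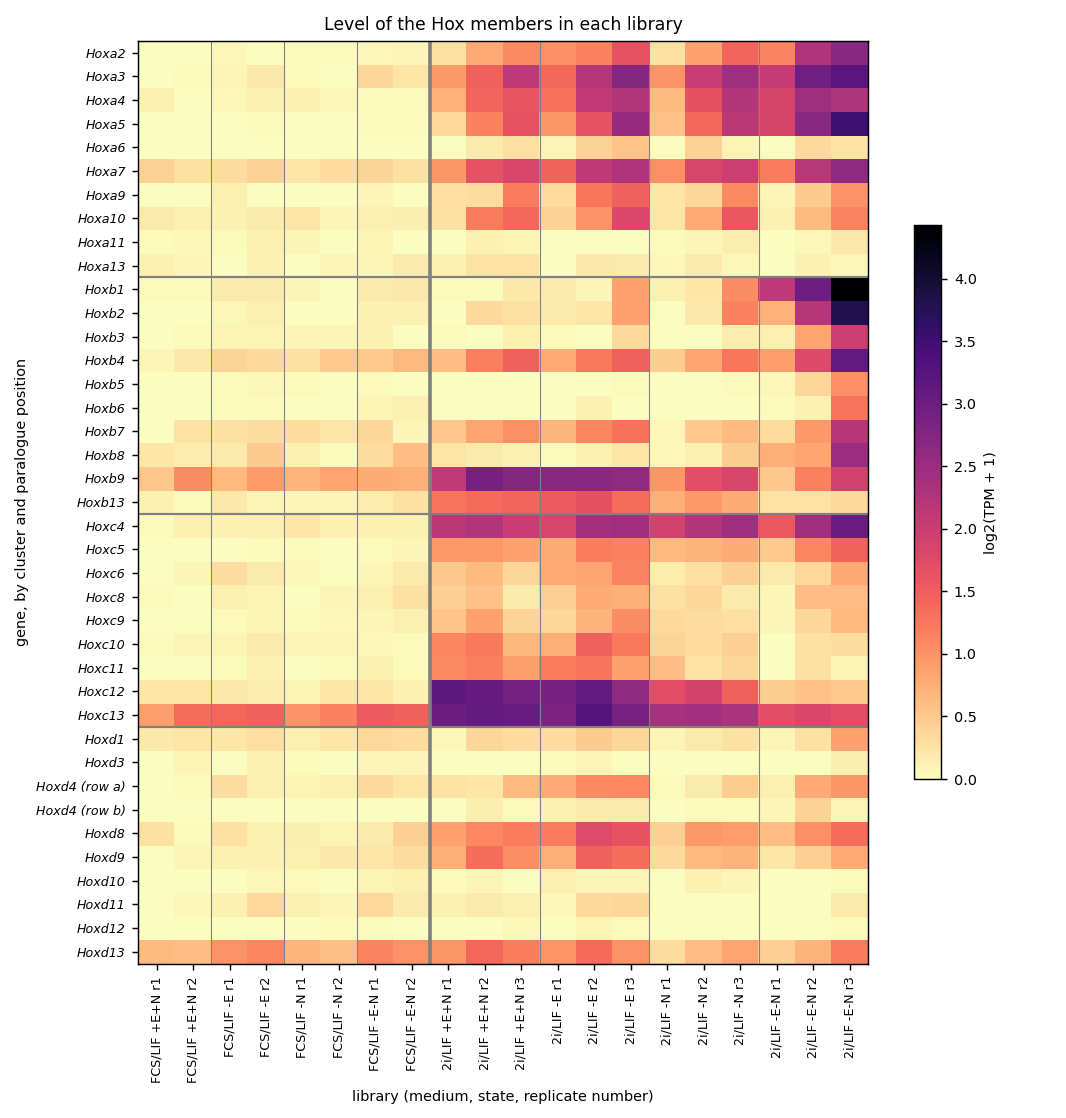
Level of each Hox row (log2 of TPM + 1, colour) in the 20 libraries (columns, by medium, state and replicate number), with genes by cluster and paralogue position. The FCS/LIF columns are pale except for Hoxb9, Hoxc13 and Hoxd13, and in 2i/LIF the posterior HoxC genes fade from +E+N to -E-N while Hoxb1 and Hoxb2 are dark in -E-N.

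Per length, the most abundant members in 2i/LIF with both factors were posterior HoxC genes. In +E+N, Hoxc12 stood at 7.29 ± 0.689 TPM and Hoxc13, which acts in hair and nail, at 7.23 ± 0.275 TPM (SD, n = 3), a difference smaller than their spread. Hoxb9, a gene of the thoracic skeleton, followed at 5.11 ± 1.64 TPM, Hoxc4 at 3.42 ± 0.390 TPM and Hoxa3, a gene of the pharyngeal arches, at 2.03 ± 1.26 TPM. The gaps between Hoxb9, Hoxc4 and Hoxa3 were close to the SDs of Hoxb9 and Hoxa3. In FCS/LIF, 2 members reached a mean of 1 TPM in any state, Hoxc13 (1.21 ± 0.509 TPM in +E+N, 1.81 ± 0.106 TPM in -E-N, n = 2) and Hoxd13 (0.530 ± 0.0283 and 1.11 ± 0.127 TPM).

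The level of Hox genes with both factors present differed between media. Comparing 2i/LIF with FCS/LIF in +E+N, 18 of the 21 members tested were higher in 2i/LIF and 0 were lower (edgeR's quasi-likelihood test, adjusted p under 0.01 and fold change over 1.5), against 17.2% of all 16147 genes called higher. The 21 members' median log2 fold change was 4.92, against 0.01 for all genes. Hoxb1, Hoxb2 and Hoxd13 were not called. All 5 HoxA members tested, 3 of 5 HoxB, 7 of 7 HoxC and 3 of 4 HoxD were called. Of the 21, 17 passed the filter only through 2i/LIF groups, so that their place in the test already favoured a higher level in 2i/LIF, and neither the count nor the median is evidence for that direction.

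Hoxc12, Hoxc13 and Hoxb13 had the lowest adjusted p of the members between media, though other members had larger fold changes. Hoxc12 had counts of 4 and 5 with both factors, 4 and 3 without Esrrb, 2 and 5 without Nr5a2 and 4 and 2 without both in FCS/LIF, and counts of 175, 136 and 126 with both factors, 135, 141 and 101 without Esrrb, 45, 50 and 31 without Nr5a2 and 8, 9 and 8 without both in 2i/LIF. In +E+N all 3 libraries of 2i/LIF lay above both of FCS/LIF, with a log2 fold change of 5.47 (SE 0.362, adjusted p = 1.56e-09). Hoxc13 had counts of 64 and 128 with both factors, 126 and 132 without Esrrb, 79 and 103 without Nr5a2 and 123 and 123 without both in FCS/LIF, and counts of 439, 391 and 394 with both factors, 365, 454 and 357 without Esrrb, 235, 225 and 206 without Nr5a2 and 135, 138 and 128 without both in 2i/LIF. It was higher in 2i/LIF by 2.61 on the log2 scale (SE 0.196, adjusted p = 8.54e-09), again with no overlap in +E+N. Hoxb13, a gene of the tail bud, had counts of 5 and 2 with both factors, 10 and 3 without Esrrb, 4 and 4 without Nr5a2 and 7 and 13 without both in FCS/LIF, and counts of 80, 73 and 82 with both factors, 101, 100 and 77 without Esrrb, 33, 43 and 32 without Nr5a2 and 10, 9 and 13 without both in 2i/LIF. Its log2 fold change between media was 4.92 (SE 0.447, adjusted p = 6.66e-08).

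Hoxc10, a gene of lumbar segments and hindlimb, had counts of 1 and 3 with both factors, 4 and 8 without Esrrb, 3 and 4 without Nr5a2 and 2 and 1 without both in FCS/LIF, and counts of 55, 53 and 24 with both factors, 31, 71 and 57 without Esrrb, 13, 10 and 14 without Nr5a2 and 0, 8 and 10 without both in 2i/LIF. Its log2 fold change between media in +E+N was 4.87 (SE 0.809, adjusted p = 5.37e-05), with no overlap. Hoxc11 had counts of 0 and 0 with both factors, 1 and 5 without Esrrb, 0 and 2 without Nr5a2 and 4 and 1 without both in FCS/LIF, and counts of 56, 53 and 37 with both factors, 63, 61 and 37 without Esrrb, 23, 8 and 12 without Nr5a2 and 0, 9 and 3 without both in 2i/LIF. Hoxc11 was at 0 in both FCS/LIF libraries of +E+N, so 2i/LIF was at least 22.9-fold higher, counted against 3 counts per library. The same bound was 12.3-fold for Hoxa2, 23.2-fold for Hoxa5 and 25.9-fold for Hoxc5, all at 0 in both FCS/LIF libraries of +E+N.

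Among anterior and central HoxC genes, Hoxc4, which acts in the cervical and upper thoracic axis, had counts of 2 and 6 with both factors, 5 and 6 without Esrrb, 10 and 5 without Nr5a2 and 4 and 5 without both in FCS/LIF, and counts of 172, 156 and 130 with both factors, 122, 178 and 197 without Esrrb, 123, 156 and 182 without Nr5a2 and 93, 187 and 316 without both in 2i/LIF. It was higher in 2i/LIF by 5.71 on the log2 scale (SE 0.587, adjusted p = 2.97e-07), and its 4 states in 2i/LIF overlapped. Hoxc5 had counts of 0 and 0 with both factors, 1 and 3 without Esrrb, 2 and 0 without Nr5a2 and 2 and 4 without both in FCS/LIF, and counts of 70, 44 and 53 with both factors, 51, 83 and 84 without Esrrb, 38, 39 and 44 without Nr5a2 and 29, 76 and 117 without both in 2i/LIF. Hoxc6, a thoracic gene, had counts of 0 and 3 with both factors, 11 and 6 without Esrrb, 2 and 0 without Nr5a2 and 2 and 6 without both in FCS/LIF, and counts of 16, 17 and 10 with both factors, 22, 25 and 39 without Esrrb, 4, 7 and 11 without Nr5a2 and 5, 9 and 25 without both in 2i/LIF, and its 10 to 17 counts in 2i/LIF +E+N lay above the 0 and 3 of FCS/LIF. The annotated Hoxc5 gene overlaps Hoxc6 and Hoxc10 on the same strand, so the division of counts among them rests on estimation.

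HoxA genes were almost silent in FCS/LIF. Hoxa2, which acts in the hindbrain and the branchial arches, had counts of 0 and 0 with both factors, 2 and 0 without Esrrb, 1 and 1 without Nr5a2 and 2 and 3 without both in FCS/LIF, and counts of 9, 26 and 42 with both factors, 43, 45 and 82 without Esrrb, 8, 29 and 60 without Nr5a2 and 49, 143 and 213 without both in 2i/LIF. Hoxa3 had counts of 1 and 2 with both factors, 5 and 12 without Esrrb, 2 and 1 without Nr5a2 and 21 and 13 without both in FCS/LIF, and counts of 60, 96 and 191 with both factors, 102, 198 and 321 without Esrrb, 58, 164 and 239 without Nr5a2 and 193, 380 and 474 without both in 2i/LIF. Both were higher in each 2i/LIF library of +E+N than in either FCS/LIF library, and in both the library numbered 3 was the highest of each 2i/LIF state. Hoxa4 had counts of 4 and 0 with both factors, 2 and 4 without Esrrb, 4 and 2 without Nr5a2 and 1 and 1 without both in FCS/LIF, and counts of 25, 53 and 68 with both factors, 54, 104 and 127 without Esrrb, 19, 68 and 116 without Nr5a2 and 95, 147 and 133 without both in 2i/LIF. Hoxa5, a gene of the neck and lung, had counts of 0 and 0 with both factors, 0 and 1 without Esrrb, 0 and 0 without Nr5a2 and 1 and 1 without both in FCS/LIF, and counts of 13, 47 and 85 with both factors, 42, 82 and 202 without Esrrb, 20, 64 and 130 without Nr5a2 and 116, 215 and 434 without both in 2i/LIF. In each 2i/LIF state of Hoxa5 the library numbered 3 was again the highest. Hoxa7, a thoracic gene, had counts of 16 and 13 with both factors, 11 and 19 without Esrrb, 11 and 17 without Nr5a2 and 16 and 11 without both in FCS/LIF, and counts of 47, 83 and 111 with both factors, 77, 141 and 173 without Esrrb, 46, 108 and 114 without Nr5a2 and 64, 152 and 213 without both in 2i/LIF, a log2 fold change between media of 2.97 (SE 0.617, adjusted p = 0.000516). The annotated Hoxa3 gene spans Hoxa4, Hoxa5 and Hoxa6 on the same strand, which makes their separate counts less certain.

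In HoxB and HoxD, Hoxb4, a gene of the neck and of blood progenitors, had counts of 5 and 13 with both factors, 25 and 20 without Esrrb, 17 and 36 without Nr5a2 and 27 and 42 without both in FCS/LIF, and counts of 34, 70 and 103 with both factors, 45, 76 and 104 without Esrrb, 22, 42 and 74 without Nr5a2 and 55, 137 and 453 without both in 2i/LIF. Hoxb9 had counts of 34 and 85 with both factors, 42 and 69 without Esrrb, 48 and 64 without Nr5a2 and 47 and 49 without both in FCS/LIF, and counts of 194, 318 and 290 with both factors, 305, 271 and 279 without Esrrb, 50, 108 and 129 without Nr5a2 and 23, 71 and 165 without both in 2i/LIF. In +E+N their log2 fold changes between media were 3.45 for Hoxb4 (SE 0.905, adjusted p = 0.00325) and 2.71 for Hoxb9 (SE 0.585, adjusted p = 0.000736). Hoxd4, a hindbrain gene, had in its tested row counts of 0 and 1 with both factors, 10 and 4 without Esrrb, 3 and 4 without Nr5a2 and 9 and 7 without both in FCS/LIF, and counts of 7, 5 and 17 with both factors, 24, 33 and 36 without Esrrb, 1, 4 and 10 without Nr5a2 and 3, 21 and 29 without both in 2i/LIF. Hoxd8 had counts of 7 and 2 with both factors, 7 and 8 without Esrrb, 9 and 5 without Nr5a2 and 10 and 20 without both in FCS/LIF, and counts of 55, 57 and 73 with both factors, 62, 109 and 86 without Esrrb, 18, 45 and 44 without Nr5a2 and 20, 60 and 85 without both in 2i/LIF. In +E+N the 2i/LIF libraries of Hoxd4 and Hoxd8 lay above those of FCS/LIF. Hoxd9 had counts of 0 and 4 with both factors, 5 and 5 without Esrrb, 6 and 11 without Nr5a2 and 10 and 14 without both in FCS/LIF, and counts of 36, 68 and 50 with both factors, 35, 79 and 74 without Esrrb, 13, 25 and 27 without Nr5a2 and 8, 16 and 35 without both in 2i/LIF. Hoxd13, which patterns digits and the urogenital tract, had counts of 42 and 42 with both factors, 77 and 88 without Esrrb, 48 and 42 without Nr5a2 and 79 and 73 without both in FCS/LIF, and counts of 60, 87 and 72 with both factors, 58, 85 and 58 without Esrrb, 13, 28 and 41 without Nr5a2 and 21, 34 and 76 without both in 2i/LIF, and its difference between media in +E+N was not called (log2 fold change 1.31, SE 0.455, adjusted p = 0.0199).

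**Figure D2:**
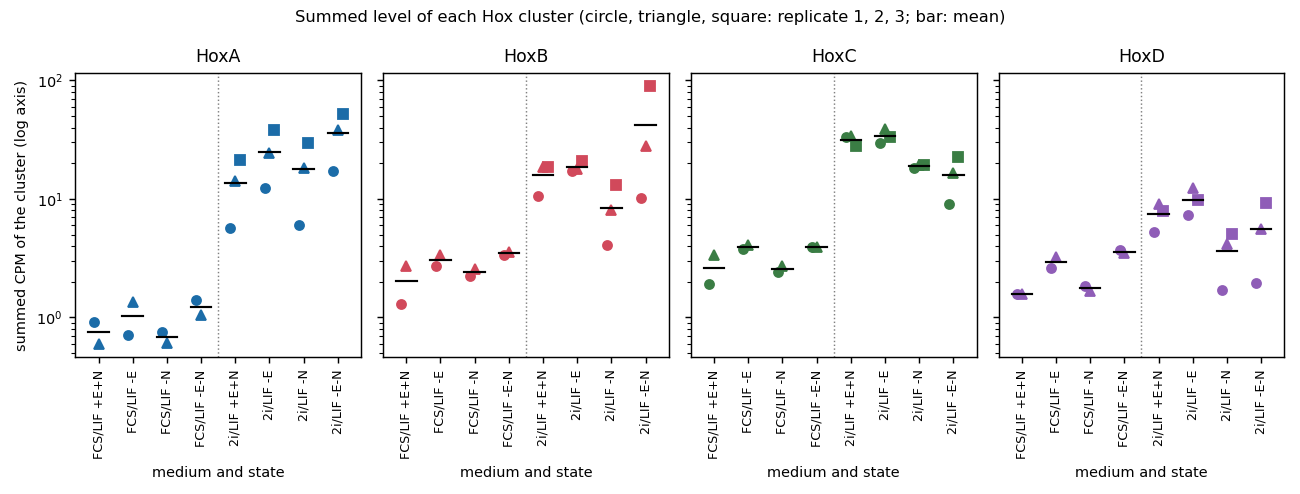
Summed CPM of each cluster (log axis) in every library, by medium and state, with the replicate number as the marker shape and the mean as a bar. In each cluster every 2i/LIF library of +E+N lies above the FCS/LIF ones, and in HoxA and HoxB the squares (replicate 3) are the highest or near the highest of most 2i/LIF states.

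The levels of the 4 clusters were also summed in each library. The mean of HoxA went from 13.7 ± 7.76 CPM in +E+N to 36.1 ± 17.7 CPM in -E-N (SD, n = 3), a log2 ratio of 1.40. The ranges overlapped (5.72 to 21.2 against 17.3 to 52.5 CPM), but at each library number HoxA was higher in -E-N. In libraries 1, 2 and 3 it was at 5.72, 14.2 and 21.2 CPM in +E+N and at 17.3, 38.4 and 52.5 CPM in -E-N. HoxB went from 15.8 ± 4.62 to 42.4 ± 41.7 CPM, with -E-N libraries from 10.2 to 89.5 CPM on either side of the +E+N range. Its log2 ratio of 1.42 was 0.26 without library 3 of -E-N. HoxC was lower, at 16.01 ± 6.68 CPM in -E-N against 31.5 ± 3.32 in +E+N, a log2 ratio of -0.98, with no overlap (9.04 to 22.4 against 27.7 to 33.9 CPM). In -N, HoxC was already at 18.9 ± 0.533 CPM. HoxD had a log2 ratio of -0.40 with overlapping libraries (0.004 without library 1 of -E-N, -0.98 without its library 3 and -0.24 without library 2 of +E+N), at 7.40 ± 1.96 CPM with both factors, 3.62 ± 1.72 without Nr5a2 and 5.60 ± 3.68 without both. In FCS/LIF all sums were low, from 0.676 to 3.94 CPM as group means, and the log2 ratios of -E-N to +E+N were 0.69 for HoxA, 0.78 for HoxB, 0.58 for HoxC and 1.19 for HoxD (n = 2). Without library 1 of +E+N those of HoxA, HoxB and HoxC were 1.03, 0.34 and 0.23, and without library 2 of +E+N 0.41, 1.41 and 1.05. These sums are descriptions, and no test was made of them.

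After loss of Esrrb alone in 2i/LIF, 3 HoxA genes were called higher when same-numbered libraries were paired, and 0 members when they were not. In -E against +E+N, edgeR's quasi-likelihood test on unpaired libraries called 0 of the 21 members, against 1.55% of all 14355 genes. Of the members, 1 was at an unadjusted p under 0.05. DESeq2 and limma also called 0. All 8 anterior and all 5 central members had positive log2 fold changes (0.13 to 2.36), and those of the 8 posterior members lay between -0.17 and 0.30. Hoxc6 and Hoxd4 passed the filter only through -E, Hoxa2 only through -E and -E-N, and Hoxa5 through every state but +E+N. For these genes the filter already favoured a positive change. In the fit blocked by replicate number, 3 HoxA genes were called higher, against 1.69% of all genes. These were Hoxa3 (log2 fold change 0.87, SE 0.160, adjusted p = 0.00266), Hoxa5 (1.18, SE 0.214, adjusted p = 0.00239) and Hoxa7 (0.73, SE 0.167, adjusted p = 0.00977), each higher in -E than in +E+N in all 3 same-numbered pairs.

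Cells without Nr5a2 had lower levels of 3 posterior Hox genes in 2i/LIF. In -N against +E+N, 3 of the 21 members were called lower, against 2.04% of all genes, and 0 were called higher. Hoxc12 fell by 1.70 on the log2 scale (SE 0.224, adjusted p = 0.000538), Hoxc13 by 0.79 (SE 0.121, adjusted p = 0.00147) and Hoxb13 by 1.03 (SE 0.220, adjusted p = 0.00996), each with no overlap between the 3 libraries of either state. The call of Hoxb13 was lost in 11 of 12 fits with a library left out, with an adjusted p of at most 0.0439. With the libraries numbered 1 and 2 alone, Hoxc12 was the 1 member called. All 8 posterior members tested had negative log2 fold changes, from -1.74 to -0.79 with a median of -1.37. Of the anterior members 6 of 8 were positive (median 0.45), beside a median of all 21 members of -0.70. Hoxc10, Hoxc11 and Hoxd9 passed the filter only through +E+N and -E, and Hoxd13 and the central Hoxd8 through every state but -N. For these genes the filter already favoured a lower level in -N. Hoxb9, Hoxc10, Hoxc11, Hoxd9 and Hoxd13 were not called (adjusted p between 0.0639 and 0.165), and neither was the central Hoxd8 (adjusted p = 0.402). With the replicate number as a block, Hoxb1 was also called higher (log2 fold change 2.64, SE 0.553, adjusted p = 0.00354), against 3.5% of all genes called higher in that fit. Its counts in -N were 4, 7 and 46, against 1, 1 and 7 in +E+N.

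Without both factors, 2 anterior members were called higher and 5 posterior members lower in 2i/LIF when libraries were not paired. In -E-N against +E+N, 2 members were called higher, both anterior HoxB genes, against 9.06% of all genes, and 5 were called lower, all posterior, against 9.56% of all genes. With the libraries unpaired, the 2 higher of 21 are close to the background share and the 5 lower of 21 are above it. The replicate numbers did not pair these 2 states throughout (correlations -0.0126 to 0.375). With the number as a block, 8 members were called higher and 7 lower. The block added Hoxa2, Hoxa3, Hoxa4, Hoxa5, Hoxa7 and Hoxb4 as higher, and Hoxb9 and Hoxd9 as lower. Each of these added genes changed in that direction in all 3 same-numbered comparisons. The unpaired counts of calls do not take up changes that recur within a library number. The share of all genes called in that fit is not given here. Hoxb1 and Hoxb2 entered the test only through -E-N, Hoxa2 only through -E and -E-N, and Hoxa5 through every state but +E+N. Hoxc10, Hoxc11 and Hoxd9 entered only through +E+N and -E, and Hoxb13 and Hoxc12 through every state but -E-N. Their place in the test already favoured the directions called. Hoxb1 (chr11:96365752-96368256, mm10), which marks a hindbrain segment and is a known target of retinoic acid, had counts of 1, 1 and 7 with both factors, 7, 2 and 38 without Esrrb, 4, 7 and 46 without Nr5a2 and 164, 305 and 938 without both in 2i/LIF. Hoxb1 rose by 7.22 on the log2 scale (SE 1.2, adjusted p = 0.000407), with every -E-N library above every other 2i/LIF library. Hoxb2 (chr11:96350525-96354012), its neighbour in the hindbrain, had counts of 1, 9 and 9 with both factors, 7, 7 and 35 without Esrrb, 0, 5 and 43 without Nr5a2 and 26, 134 and 497 without both. It rose by 5.07 on the log2 scale (SE 1.30, adjusted p = 0.00734), and the 26 counts of library 1 of -E-N lay above all 3 libraries of +E+N but below library 3 of -E and of -N. Hoxb1 was called in all 12 fits with a library left out and Hoxb2 in 6 of 12, with an adjusted p of up to 0.0346. The gene Hoxb3os lies over Hoxb2 on the opposite strand, and as the strand setting of the counting is not given, reads of both cannot be told apart.

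The genes called lower were Hoxc10, Hoxc11, Hoxc12, Hoxc13 and Hoxb13. Hoxc12 (chr15:102936757-102938609) fell by 4.11 on the log2 scale (SE 0.271, adjusted p = 3.61e-07), from 126 to 175 counts in +E+N to 8 or 9 in -E-N. Hoxc11 (chr15:102954427-102957708) fell by 3.57 (SE 0.639, adjusted p = 0.000685), and 1 of its 3 -E-N libraries was at 0. Hoxb13 (chr11:96194316-96197447) fell by 2.87 (SE 0.252, adjusted p = 3.22e-06). Hoxc10 (chr15:102966796-102971893) fell by 2.85 (SE 0.632, adjusted p = 0.00301), and Hoxc13 (chr15:102921103-102928814) by 1.62 (SE 0.125, adjusted p = 1.27e-06). For each of the 5, the highest -E-N library lay below the lowest +E+N library. In the fits with a library left out, Hoxc11, Hoxc12, Hoxc13 and Hoxb13 were called in 12 of 12, and Hoxc10 in 11 of 12. With the libraries numbered 1 and 2 alone, 5 of the 7 were called, which left out Hoxb2 and Hoxc11. Hoxc12 had the largest of the 5 changes and Hoxc13 the smallest, and the intervals of 1 SE of Hoxc10, Hoxb13 and Hoxc11 overlapped.

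**Figure D3:**
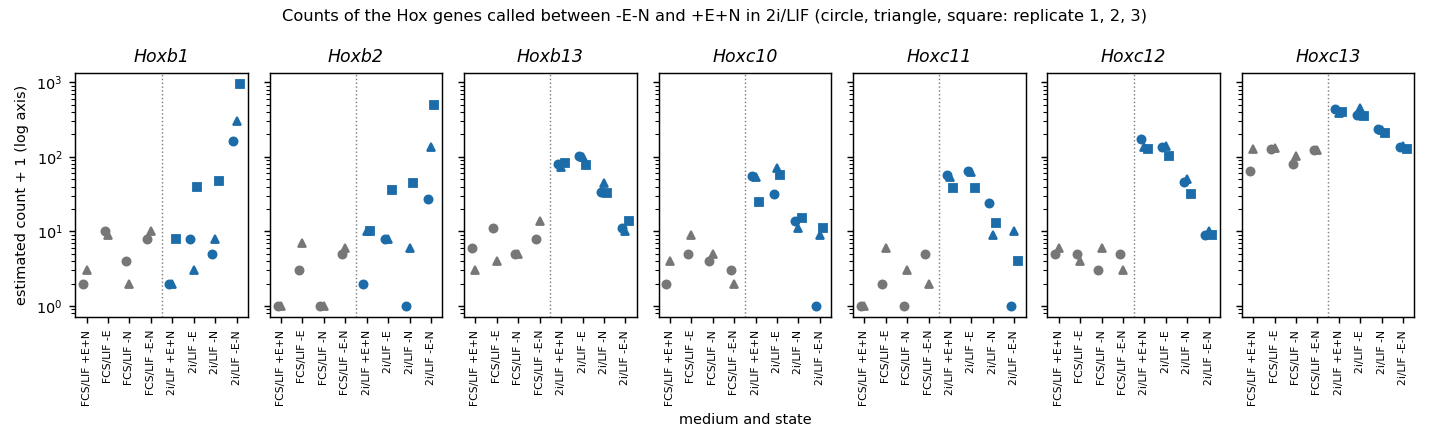
Estimated counts plus 1 (log axis) of the 7 Hox genes called between -E-N and +E+N in 2i/LIF, in every library of both media (grey FCS/LIF, blue 2i/LIF; marker shape gives the replicate number). Hoxb1 and Hoxb2 are highest in 2i/LIF -E-N, and the other 5 have their lowest mean count of 2i/LIF there.

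By paralogue position, all 8 anterior members tested had positive log2 fold changes in -E-N against +E+N (median 1.59), the 5 central members had 3 positive and 2 negative (median 0.42), and all 8 posterior members had negative ones (median -2.25). Hoxb1 and Hoxb2 passed the filter only through -E-N, Hoxa2 only through -E and -E-N, and Hoxa5 through every state but +E+N. Hoxc10, Hoxc11 and Hoxd9 passed only through +E+N and -E, and Hoxb13 and Hoxc12 through every state but -E-N. For these genes the filter already favoured the sign found, so the signs and medians by position are in part set by it. The median of the 21 members was 0.38, against 0.01 for all genes. By cluster, all 5 HoxA members were positive (0.81 to 2.37), HoxB ran from -2.87 to 7.22, HoxC from -4.11 to 0.42 with 4 of 7 called lower, and HoxD from -1.41 to 0.86 with 0 of 4 called. Hoxa2 (log2 fold change 2.37, SE 0.697, adjusted p = 0.0161) and Hoxa5 (2.37, SE 0.781, adjusted p = 0.0283) missed the limit, as did Hoxb9 (-1.65, SE 0.520, adjusted p = 0.0227). At position 4, Hoxb4 was at 1.61 and Hoxc4 at 0.38, neither called, and at position 13, Hoxb13, Hoxc13 and Hoxd13 were all negative, with Hoxd13 not called (-0.76, SE 0.458, adjusted p = 0.206). Differences between members at 1 position were not tested.

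**Figure D4:**
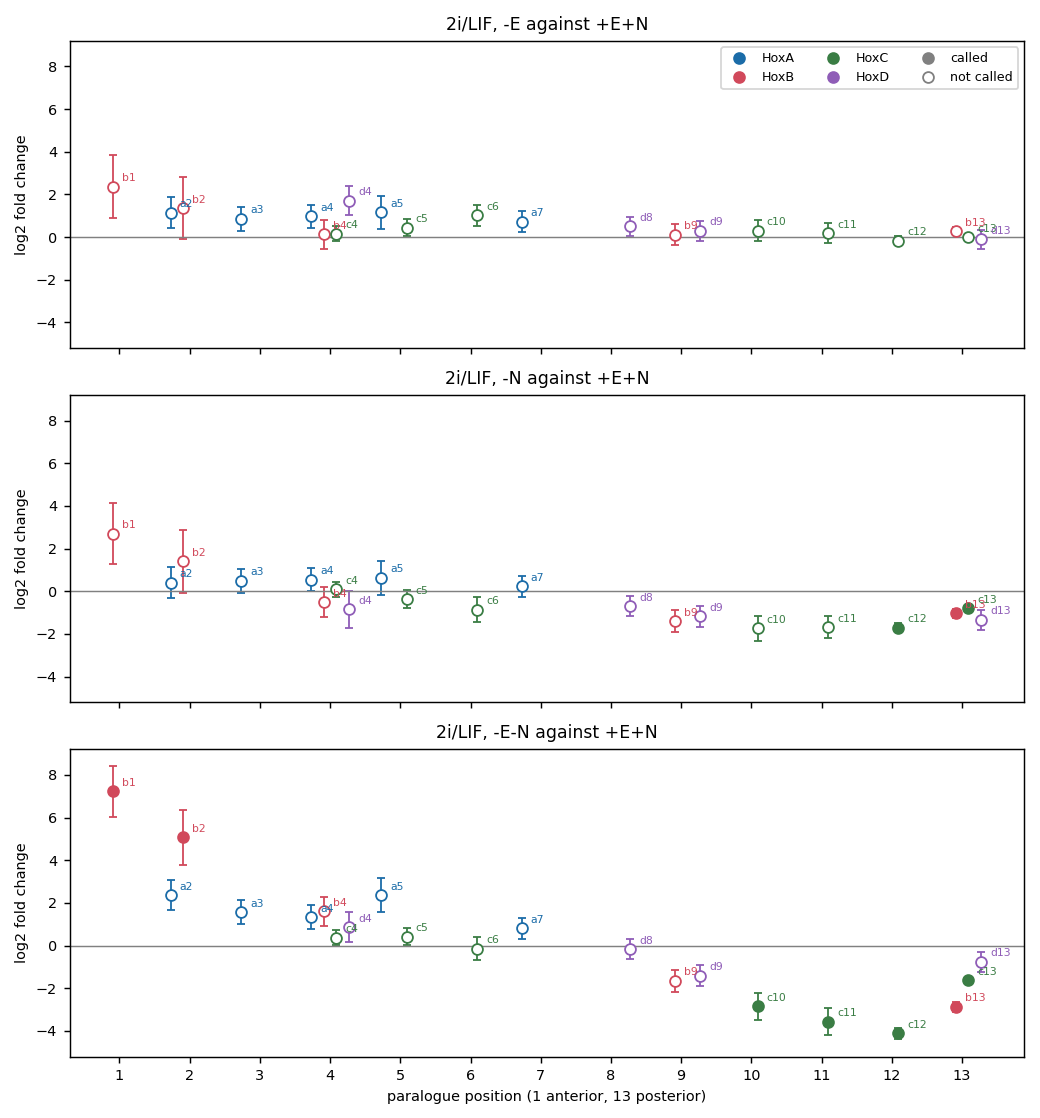
Log2 fold change against +E+N in 2i/LIF (points, with bars of 1 SE) of the 21 members tested, by paralogue position and cluster, for -E (top), -N (middle) and -E-N (bottom); filled points were called. In -E-N the points run from positive at positions 1 to 5 to negative at positions 9 to 13, from 7.22 for Hoxb1 to -4.11 for Hoxc12. The filter favoured the signs of both, as Hoxb1 passed it only through -E-N and Hoxc12 only through the other states.

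The share of the members' summed TPM held by posterior genes gave the same contrast on a scale per length. In 2i/LIF it was 63.9 ± 6.51% with both factors (57.3 to 70.3%), 53.3 ± 9.05% without Esrrb and 44.02 ± 11.1% without Nr5a2. Without both it was 13.05 ± 3.21% (9.94 to 16.4%), below every other library. The anterior share was 21.1 ± 4.19% in +E+N and 60.9 ± 2.14% in -E-N (58.5 to 62.6%). In FCS/LIF the posterior share was 72.1 ± 5.62% in +E+N and 60.7 ± 3.14% in -E-N (n = 2), on far fewer counts. A share falls when other members rise, so it adds no evidence to the counts above.

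**Figure D5:**
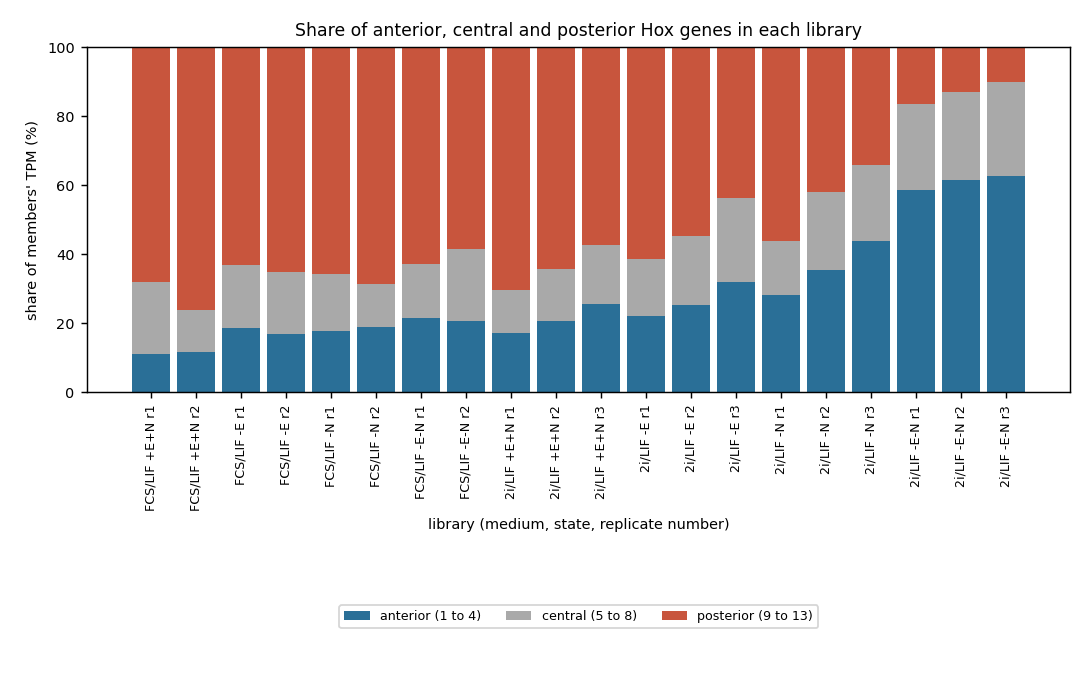
Share of the members' summed TPM held by anterior (positions 1 to 4), central (5 to 8) and posterior (9 to 13) genes in each of the 20 libraries, by medium, state and replicate number. The posterior share is 9.94 to 16.4% in the 3 libraries of 2i/LIF -E-N and 34.1% or more in every other library.

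Withdrawal of Dox in cells that lacked Nr5a2 was read by setting -E-N against -N in 2i/LIF. Among the 21 members 1 was called higher, against 3.39% of all genes, and 3 lower, against 3.36% of all genes. Of the genes named below, Hoxb1 and Hoxb2 passed the filter only through -E-N and Hoxa2 only through -E and -E-N. Hoxb13 and Hoxc12 passed through every state but -E-N. For these genes the filter already favoured the direction found. Hoxb1 rose by 4.52 on the log2 scale (SE 0.944, adjusted p = 0.00565), with no overlap (164 to 938 against 4 to 46 counts), and was called in 8 of 12 fits with a library left out. With the libraries numbered 1 and 2 alone the calls were Hoxb1, Hoxb13 and Hoxc12. Hoxc12 fell by 2.41 (SE 0.282, adjusted p = 0.000139), Hoxb13 by 1.84 (SE 0.260, adjusted p = 0.000495) and Hoxc13 by 0.83 (SE 0.126, adjusted p = 0.000879). With the replicate number as a block, 6 members were called higher, against 6.52% of all genes, and the same 3 lower. The 6 were Hoxb1, Hoxb2 (log2 fold change 3.74, SE 0.449, adjusted p = 3.98e-05), Hoxa2 (2.00, SE 0.315, adjusted p = 0.000356), Hoxb4 (1.92, SE 0.301, adjusted p = 0.000351), Hoxa5 (1.84, SE 0.196, adjusted p = 1.63e-05) and Hoxa3 (1.17, SE 0.152, adjusted p = 7.95e-05).

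The interaction asked whether the change in -E-N departed from the sum of the changes in -E and -N. In 2i/LIF it was called for 2 members, both below the sum, against 0.209% of all genes with an interaction in that direction. Hoxc12 fell further than the sum by 2.24 on the log2 scale (SE 0.354, adjusted p = 0.00967) and Hoxb13 by 2.12 (SE 0.334, adjusted p = 0.00967). Both adjusted p lay just under the limit of 0.01, and both calls were lost in all 12 fits with a library left out (adjusted p up to 0.0339). Both genes passed the filter through every state but -E-N, which already favoured this direction. The interaction of Hoxb1 was 2.16 on the log2 scale and was not called.

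In FCS/LIF few Hox genes could be tested and 1 was called. Against +E+N, -E called 0 of the 4 detected members (5.76% of all 15636 genes were called), with 2 at an unadjusted p under 0.05, and -N called 0 (0.173% of all genes), with 1 at an unadjusted p under 0.05. DESeq2 and limma also called 0 in both. In -E-N, Hoxb4 rose by 1.97 on the log2 scale (SE 0.478, adjusted p = 0.00862), from 5 and 13 counts to 27 and 42, against 12.4% of all genes called higher. None of the 4 was lower, against 6.4% of all genes. Hoxb4 passed the filter in FCS/LIF only through -E and -E-N, which already favoured a higher level in -E-N. The call of Hoxb4 was lost in 6 of 8 fits with a library left out, with an adjusted p of up to 0.064. Hoxb4 was not called with DESeq2, with limma at either pseudocount or with filterByExpr either. Hoxd13 had 42 and 42 counts in +E+N and 79 and 73 in -E-N, and missed the limit (log2 fold change 0.89, SE 0.229, adjusted p = 0.0114). With -N as the base, -E-N called 0 of 4 (10.1% of all genes), with 2 at an unadjusted p under 0.05, and the interaction 0 of 4 (0.032% of all genes), with 0 at an unadjusted p under 0.05. DESeq2 called 0 in both, and limma 0 or 1 of -E-N against -N by the pseudocount.

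The response to the loss of both factors was then compared between media by testing the difference itself. For 3 members the change in FCS/LIF was above that in 2i/LIF, against 7.3% of all genes in that direction, all of them posterior. The difference of log2 fold changes was 4.41 for Hoxb13 (SE 0.640, adjusted p = 0.000103), 3.63 for Hoxc12 (SE 0.707, adjusted p = 0.00139) and 2.07 for Hoxc13 (SE 0.263, adjusted p = 3.45e-05). Hoxc13 was not lower in FCS/LIF (log2 fold change 0.42), and Hoxc12 had 2 to 5 counts in every FCS/LIF library, all below the filter. Without library 1 of FCS/LIF -E-N the adjusted p of Hoxc12 was 0.132. For Hoxb1, at 7 and 9 counts in FCS/LIF -E-N, the difference was -4.85 and was not called (adjusted p = 0.321).

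Other genes of the Hox pathway were counted by list. The counts stand beside 9.06% of all genes called higher and 9.56% called lower in -E-N against +E+N of 2i/LIF, and 12.4% and 6.4% in FCS/LIF. Of the 9 Pbx, Meis and Pknox cofactors tested, which bind DNA together with Hox proteins, 4 passed upward and 0 downward in 2i/LIF -E-N against +E+N (median log2 fold change 0.57), the largest being Meis3 (3.61, SE 0.328, adjusted p = 4.46e-06) and Meis1 (1.89, SE 0.417, adjusted p = 0.00304). In FCS/LIF 3 of 9 were higher and 0 lower, led by Meis2 (2.40, SE 0.212, adjusted p = 4.42e-05). Of the Cdx and Evx factors with Gbx2, all 4 tested were called higher in 2i/LIF. The lowest +E+N library of Cdx2 and of Cdx4 was under 20 counts, so for both the filter already favoured a rise. Cdx2, a trunk and trophoblast regulator, went from 18 to 81 counts in +E+N to 1244 to 1577 in -E-N (log2 fold change 5.03, SE 0.580, adjusted p = 2.79e-05), and Cdx4 from 3 to 10 counts to 35 to 92 (3.31, SE 0.533, adjusted p = 0.000329). In FCS/LIF 3 of 5 were higher, led by Cdx4 (2.41, SE 0.363, adjusted p = 0.000761) and Cdx1 (2.13, SE 0.422, adjusted p = 0.00312). With both factors present Cdx1, a known Wnt target, stood at 0.156 CPM in FCS/LIF and at 104 CPM in 2i/LIF.

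Of 11 retinoic acid pathway genes tested in 2i/LIF, 5 passed upward and 3 downward in -E-N against +E+N, against 9.06% and 9.56% of all genes. The largest were Crabp2, a retinoic acid binding protein, which rose by 3.75 on the log2 scale (SE 0.314, adjusted p = 2.36e-06), and Aldh1a3, a retinoic acid synthesis enzyme, which went from 39 to 45 counts to 3 in each library. Aldh1a3 was under 20 counts in -E-N, so the filter already favoured its fall. In FCS/LIF 2 of 12 were higher and 3 lower, against 12.4% and 6.4% of all genes. Cyp26a1, which breaks retinoic acid down, fell there by 1.30 (SE 0.252, adjusted p = 0.00290). Of 13 Polycomb subunits, 0 were called in 2i/LIF by edgeR, with 10 at an unadjusted p under 0.05 and a median log2 fold change of -0.19. In FCS/LIF 1 was higher and 3 lower, led by Jarid2 (-1.14, SE 0.0642, adjusted p = 4.59e-06) and Mtf2 (-0.96, SE 0.0685, adjusted p = 1.49e-05). Of 8 MLL complex subunits, 2 were lower in 2i/LIF, Wdr5 (-1.12, SE 0.100, adjusted p = 4.22e-06) and Dpy30 (-0.82, SE 0.124, adjusted p = 0.000207), and Dpy30 alone in FCS/LIF (-0.65, SE 0.110, adjusted p = 0.00150). Among the antisense and long noncoding RNAs of the clusters, 1 of 3 was called in 2i/LIF, Hotairm1 at the anterior end of HoxA, which rose from 13 to 20 counts to 66 to 106 (log2 fold change 2.36, SE 0.403, adjusted p = 0.000512). The lowest +E+N library of Hotairm1 was under 20 counts, so the filter already favoured its rise. In FCS/LIF the only one tested, Halr1, fell by 1.44 (SE 0.334, adjusted p = 0.00707).

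Markers of other cell types moved with these states. In 2i/LIF the summed level of 6 pluripotent cell markers was 3778 to 3951 CPM in +E+N and 1738 to 2345 CPM in -E-N, and that of 7 trophoblast markers 81.6 to 95.2 and 214 to 361 CPM, with 4 of 5 tested called higher and 0 lower. The 7 endoderm markers went from 2.47 to 4.98 CPM to 8.29 to 10.3 CPM, with Ttr at 0. The 9 mesoderm markers lay at 13.9 to 15.4 and 7.54 to 15.0 CPM with Msgn1 at 0 in -E-N, the 8 neural markers at 73.6 to 86.1 and 44.8 to 62.5 CPM with Neurog2 and Olig2 at 0 in -E-N, and the 9 fibroblast markers at 11.3 to 20.0 and 12.1 to 22.2 CPM. In FCS/LIF from +E+N to -E-N the sums were 2498 to 2746 and 1129 to 1254 CPM for pluripotent cell, 333 to 376 and 1088 to 1632 for trophoblast, 22.6 to 26.0 and 57.3 to 79.7 for mesoderm, 152 to 158 and 250 to 276 for neural, 9.62 to 13.97 and 8.99 to 9.22 for endoderm, and 8.79 to 10.5 and 15.4 to 16.3 for fibroblast markers. The part of such cells in the Hox differences was not tested.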

How the data were processed

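Stranded poly-A paired-end reads were aligned by the authors to mm10 with STAR, and the deposited estimated counts and TPM values were made by the authors with RSEM. The processing notes also list Bowtie2. Estimated counts were rounded, and the 92 ERCC rows (all at 0) were left out. The 69 ChIP-seq samples were not analysed here, and 1 item is not reported here. States of a medium were fitted together with edgeR 4.0.16 (R 4.3.3, TMM, quasi-likelihood test, Benjamini-Hochberg adjustment) over genes with 20 counts or more in every replicate of some state (15636 in FCS/LIF, 14355 in 2i/LIF, and 16147 in the fit of all 20 libraries). A gene counted as called when its adjusted p was under 0.01 and its fold change over 1.5, and interactions and differences between media at an adjusted p under 0.01. No 2 replicates agreed within sampling noise. The paper describes replicates as independent experiments, and p-values measure the spread between them.

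The replicate numbers were taken as pairs within 2i/LIF where same-numbered libraries deviated together, which held for +E+N with -E (correlations 0.187 to 0.483), +E+N with -N (0.170 to 0.572) and -N with -E-N (0.155 to 0.450). The members and gene lists were chosen with earlier results of these data known. Values are given for every library for members called in at least 1 comparison and for the most abundant member of each cluster, and other genes by list with the 2 largest changes called. Settings tried were DESeq2 1.42.0, its size factors, no filter or filterByExpr, limma 3.58.1 with a pseudocount of 1 or 0.1 on the log2 TPM scale, the replicate block, the compared states alone, an adjusted p under 0.05 and leaving out each library. The fits were tested on simulated data. Coordinates are those of GENCODE vM21 on mm10, in which 15 of 38 members overlap a gene on the same strand and 13 one on the opposite strand. The strand setting of the counting is not given in the sources used here. Limits from counts of 0 cover counting error only.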

Additional observations from a re-analysis of the deposited data

Results flagged for a closer look

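For 3 Hox genes a test of a difference between changes passed the limit. In 2i/LIF, the change without both factors departed from the sum of the changes without Esrrb and without Nr5a2 by -2.24 for Hoxc12 and by -2.12 for Hoxb13 on the log2 scale (edgeR's quasi-likelihood test of the interaction, adjusted p = 0.00967 for both). Both calls were lost in all 12 fits with a library left out, and limma called neither at either pseudocount. Within 2i/LIF both genes passed the filter through every state but -E-N, which already favoured a change below the sum. Between media, the log2 fold change of -E-N against +E+N in FCS/LIF minus that in 2i/LIF was 4.41 for Hoxb13 (adjusted p = 0.000103), 3.63 for Hoxc12 (adjusted p = 0.00139) and 2.07 for Hoxc13 (adjusted p = 3.45e-05). Hoxb13 and Hoxc12 were under the filter in FCS/LIF, with at most 13 and 5 counts in any of its libraries. They passed only through 2i/LIF, where they were high.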

How the results depend on the processing

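No called Hox gene changed direction under the settings tried. In FCS/LIF, Hox genes called in -E against +E+N went from 0 to 1 at an adjusted p under 0.05. Those in -E-N against +E+N went from 1 to 0 with DESeq2 and with limma on log2(TPM + 1), to 3 without a filter, to 2 at an adjusted p under 0.05 and to 2 with the replicate block, and were 0 to 1 with a library left out. With filterByExpr the 1 gene called was Hoxa3, and with limma on log2(TPM + 0.1) it was Hoxd13. Those in -E-N against -N went from 0 to 2 without a filter and to 1 with filterByExpr, with limma on log2(TPM + 0.1) and at an adjusted p under 0.05. In 2i/LIF, the replicate block gave 3 in -E (0 without it), 15 in -E-N against +E+N (8 higher and 7 lower, 7 without it, adding Hoxa2, Hoxa3, Hoxa4, Hoxa5, Hoxa7 and Hoxb4 as higher and Hoxb9 and Hoxd9 as lower) and 9 in -E-N against -N (4 without it). Without a filter the last 2 counts were 15 and 11, and at an adjusted p under 0.05 -E-N against +E+N gave 12. With the libraries numbered 1 and 2 alone, an alternative added after seeing the data, -N gave 1 (3 with all) and the interaction 0 (2 with all). The interaction was also 0 with limma at both pseudocounts and 0 in all 12 fits with a library left out, against 3 with DESeq2 and 3 with the replicate block. Leaving out a library gave 2 to 3 in -N, 5 to 8 in -E-N against +E+N and 3 to 4 in -E-N against -N.

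Between media in +E+N the count went from 18 to 10 with limma on log2(TPM + 1) and was 12 to 19 with a library left out, 25 without a filter and 18 with the replicate block. The response difference between media went from 3 to 5 with DESeq2, with limma on log2(TPM + 1), at an adjusted p under 0.05 and without library 3 of 2i/LIF -E-N (2 to 5 with a library left out), to 8 without a filter and to 4 with the block. Detection in FCS/LIF went from 4 to 10 at 10 counts and to 2 at a mean of 1 TPM. In FCS/LIF the log2 ratio of the summed HoxB level was 1.90 without Hoxb9 (0.78 with it), that of HoxC 1.30 without Hoxc13 (0.58) and that of HoxD 1.39 as summed TPM and 1.59 without Hoxd13 (1.19). In 2i/LIF, with a library left out, the log2 ratio of HoxD (-0.40) lay between -0.98 and 0.004, its sign turning at the upper end, and that of HoxB (1.42) between 0.26 and 1.89. The causes were not tested, other than that fewer libraries or another set of tested genes enter some fits. The replicate numbers did not pair +E+N with -E-N in 2i/LIF (correlations -0.0126 to 0.375), although 33 of 36 comparisons of a library with another state gave the highest correlation with its own number, and with 2 libraries per state FCS/LIF gave correlations of 0.0361 to 0.360. Beside 4 members called in -N with the block (3 without it), no other count of Hox calls changed under it than those given here, with the interaction among them. Leaving out an FCS/LIF library leaves 1 in its state, which is then assumed to vary like the others. Members under 20 counts were not tested, so depth limits what can be said of 34 members in FCS/LIF and 17 in 2i/LIF.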
